A study of Homo sapiens with 8 samples.

Results

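The accessible sites of human chromosome 8 were described in a study of surface ectoderm, the simple epithelium from which the epidermis and its appendages form. All sites on chromosome 8 were taken from both lists deposited by the authors, so the members were chosen by their list and their chromosome. This gave 841 sites of 14191 in all. Of these, 537 came from the list whose name says that the morphogens open its sites ("opened sites"). The other 304 came from the list whose name adds that p63 closes them ("p63-closed sites"). List membership is the authors' own call from their samples. It is used here as a description, and no test was made of it. The name of the p63 list also claims opening by morphogens for its sites, yet both lists have no site in common. Which comparison of samples placed a site in either list is not stated, so a p63-closed share gives the mix of the lists and not the part of opened chromatin that p63 closes.

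The assay was ATAC-seq, which uses the Tn5 transposase to cut and tag DNA that is not packed into nucleosomes. The study held 4 groups of 2 samples, all from the human embryonic stem cell line H9. Surface ectoderm lacking p63 (p63-/-) and wild-type surface ectoderm had each been kept for 7 days in 1 uM retinoic acid (RA) and 5 ng/ml BMP4. A line with an inducible transgene (TetO:Tp63+/-) was taken at day 0, after 2 days in doxycycline at 2 ug/ml. Wild-type stem cells were taken at day 0, with none of these agents named for them. Whether the knockout or the transgenic line is a single clone is not stated by the labels. They attach the opened list to the wild-type samples of day 7 and day 0, and the p63-closed list to the p63-/- and wild-type samples of day 7. Neither list is attached to the transgenic line.

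RA acts through nuclear receptors that sit on DNA, and BMP4 acts through SMAD proteins. Given together, both steer pluripotent cells towards non-neural ectoderm. p63, the product of TP63, is the p53-family transcription factor on which stratified epithelia depend. Distal accessible sites often gather around genes for developmental transcription factors and signalling molecules, where several enhancers can act on a single promoter.

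Each list gives the chromosome, start, end and a numbered name of a site, and no count, signal or fold change. Depth is therefore unknown and no value per sample can be shown, so neither the spread between replicates nor the labelled cell types could be examined. A site opened in more cells and a site opened further in each cell cannot be told apart in bulk samples. The numbers in the site names run in order along chromosome 8 and span 96450 entries of what appears to be a single catalogue of candidate regions, of which 0.872% are listed. Densities are given per 1000 of these entries, and all positions are 1-based on hg19. Intervals are exact 95% intervals and cover counting error only. Neighbouring sites gather, so the true uncertainty is wider.

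Chromosome 8 carried more opened sites for its size than most chromosomes, and about as many p63-closed sites as a typical one. Its opened sites made up 6.59% of the opened list, at 5.57 per 1000 entries (95% interval 5.11 to 6.06), against 4.39 on all other chromosomes together (4.30 to 4.49). Only chromosomes 18 and 21 had a higher value. Its p63-closed sites made up 5.04% of their list, at 3.15 per 1000 entries (2.81 to 3.53), against 3.31 on all other chromosomes (3.22 to 3.39). Here 12 of the other 22 chromosomes were higher and 10 were lower. Both lists together gave 8.72 sites per 1000 entries on chromosome 8 and 7.70 on the others.

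The p63-closed share of the listed sites was 36.1% on chromosome 8 (32.9 to 39.5%), against 42.9% on all other chromosomes and 44.1% on the other autosomes. Of the 22 other chromosomes, 17 had a higher share and 5 a lower one, and the range ran between 7.39% on chromosome X and 54.4% on chromosome 15. These counts describe the choice of list and chromosome, so no p-value is given for them.

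**Figure D1:**
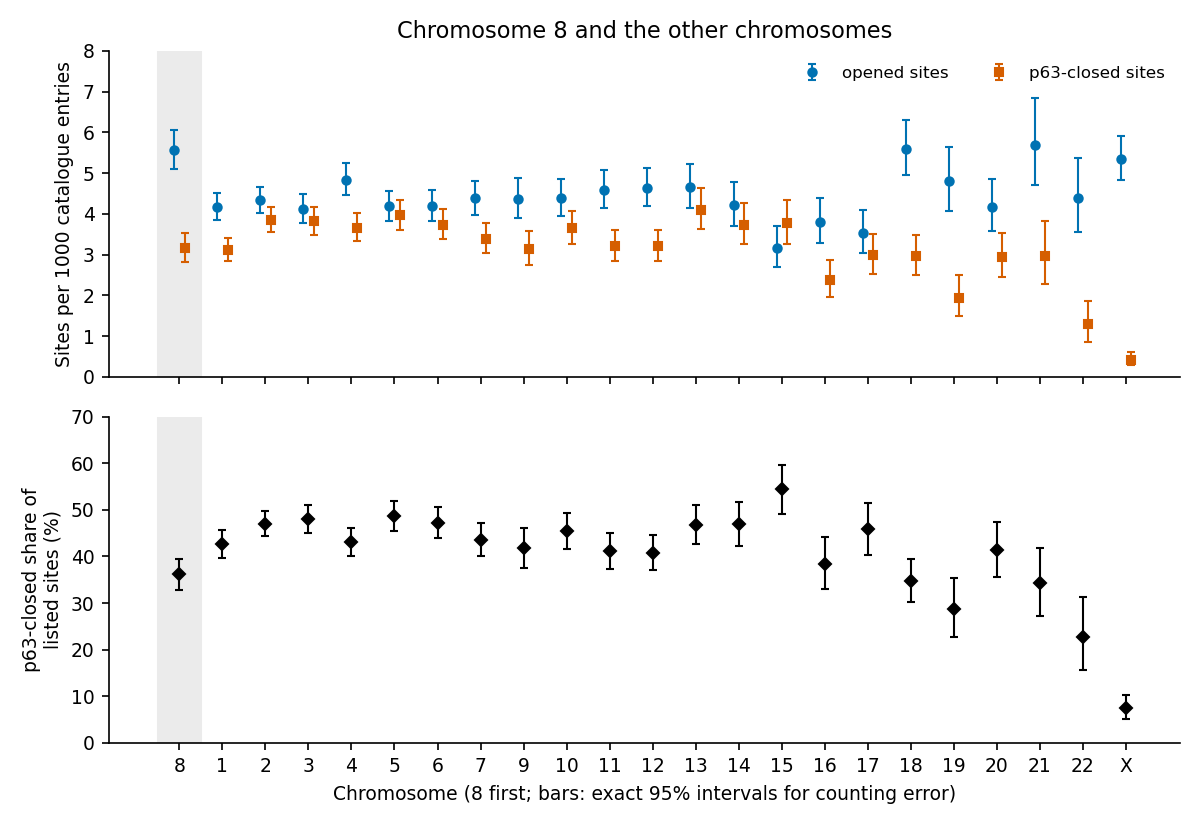
Upper panel: density of opened sites (circles) and p63-closed sites (squares), in sites per 1000 catalogue entries, on chromosome 8 (shaded, first) and each other chromosome; lower panel: p63-closed share of listed sites, in percent. Bars are exact 95% intervals for counting error. Chromosome 8 has 5.57 opened and 3.15 p63-closed sites per 1000 entries and a share of 36.1%.

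Chromosome 8 was then read in bins of 5 Mb, counted from the short-arm end. It held 29 complete bins and a last, incomplete one with 2 sites. A complete bin held 16 to 52 listed sites, with a median of 29, against a median of 24 and a highest value of 48 in the 548 complete bins of the other chromosomes. Opened sites ran between 8 and 31 per bin, with a median of 18. p63-closed sites ran between 0 and 21, with a median of 10. The short-arm side of the widest gap in the sites, which spans the centromere region, held 264 sites with a p63-closed share of 34.1% (28.4 to 40.2%). The long-arm side held 577 sites with a share of 37.1% (33.1 to 41.2%), and these intervals overlap.

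**Figure D2:**
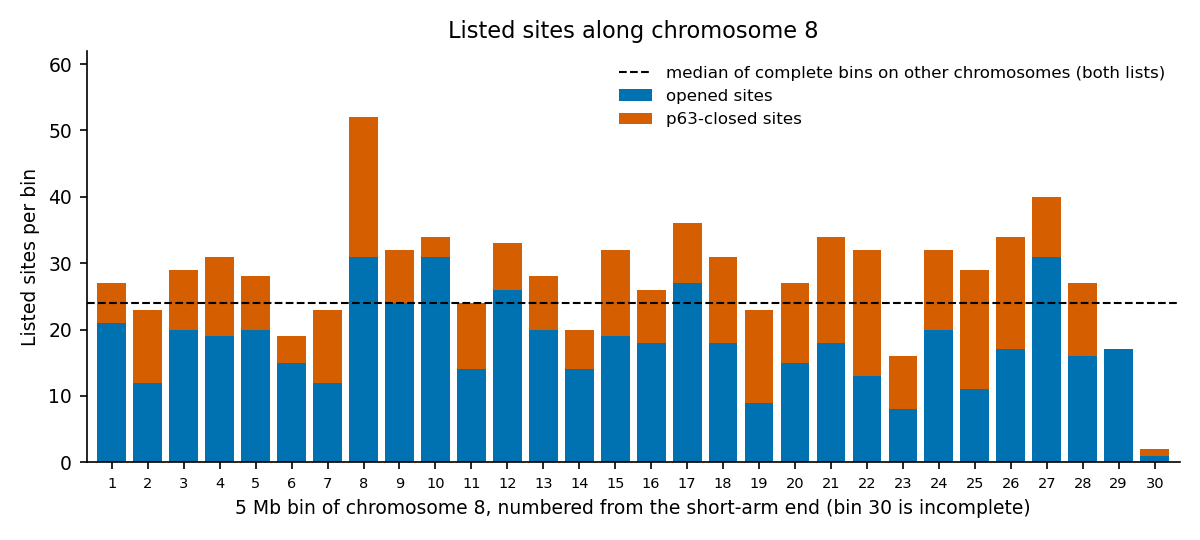
Opened sites (lower, blue) and p63-closed sites (upper, orange) in each 5 Mb bin of chromosome 8; the dashed line is the median of both lists together in complete bins of the other chromosomes, 24. The bar of bin 8 reaches 52 sites, and bin 29 holds 17 opened sites and no p63-closed site.

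The fullest bin, from 35 to 40 Mb, held 31 opened and 21 p63-closed sites, or 16.5 per 1000 entries (12.3 to 21.6). None of the 548 bins on other chromosomes held as many sites. The density was higher still from 45 to 50 Mb, at 20.5 sites per 1000 entries (14.2 to 28.6). That bin reaches into the centromere region and holds only 1661 estimated entries, and its 34 sites all lie beyond 47868160. Counted per megabase instead, the bin from 35 to 40 Mb came first, at 10.4 sites per Mb. The next densest bins per 1000 entries were 40 to 45 Mb with 11.8, 130 to 135 Mb with 11.2 and 80 to 85 Mb with 10.6. The bin from 40 to 45 Mb also reaches into the centromere region and holds 2714 estimated entries. By number of sites, 32, it shared rank 8. The emptiest complete bins were 110 to 115 Mb with 4.70 (16 sites), 140 to 145 Mb with 5.19 (17 sites) and 25 to 30 Mb with 5.48 (19 sites).

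The mix of the lists changed along the chromosome. In the bin from 45 to 50 Mb only 3 of 34 sites were p63-closed, a share of 8.82% (1.86 to 23.7%). From 140 to 145 Mb 0 of 17 sites were p63-closed (0 to 19.5%). Among the other autosomes, 0 of 457 bins with at least 15 sites lacked p63-closed sites, although 4 such bins lay on chromosome X. Some autosomal bins below that floor also had 0 p63-closed sites. Examples began at 65000001 on chromosome 11 (0 of 12), 55000001 on chromosome 7 (0 of 11) and 15000001 on chromosome 22 (0 of 9). Above the floor, the bin from 95000001 on chromosome 2 had 1 of 37, a share of 2.70% (0.0684 to 14.2%). At the other end, p63-closed sites outnumbered opened sites in 3 bins of chromosome 8, a count that depends on the bin edges and was 5 with edges shifted by 2.5 Mb. The 3 bins were 120 to 125 Mb, with 11 opened and 18 p63-closed sites (62.1%, 42.3 to 79.3%), 90 to 95 Mb, with 9 and 14 (60.9%, 38.5 to 80.3%), and 105 to 110 Mb, with 13 and 19 (59.4%, 40.6 to 76.3%). In 24 of the 29 bins the opened sites were the more numerous and in 2 the counts were equal. On the other autosomes p63-closed sites were the more numerous in 169 of 518 bins.

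In 24 of the 29 bins the interval of the share held the value of the whole chromosome, 36.1%. In the 5 bins of chromosome 8 just named it did not. No adjustment was made over the 29 bins. In segments of 25 Mb the share was 33.3%, 29.4%, 32.1%, 39.2%, 51.0% and 31.7%, in order from the short-arm end. The segment from 100 to 125 Mb, with 70 opened and 73 p63-closed sites, had an interval of 42.6 to 59.5%, which lies above the chromosome's value. The second segment, from 25 to 50 Mb, had 113 opened and 47 p63-closed sites.

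**Figure D3:**
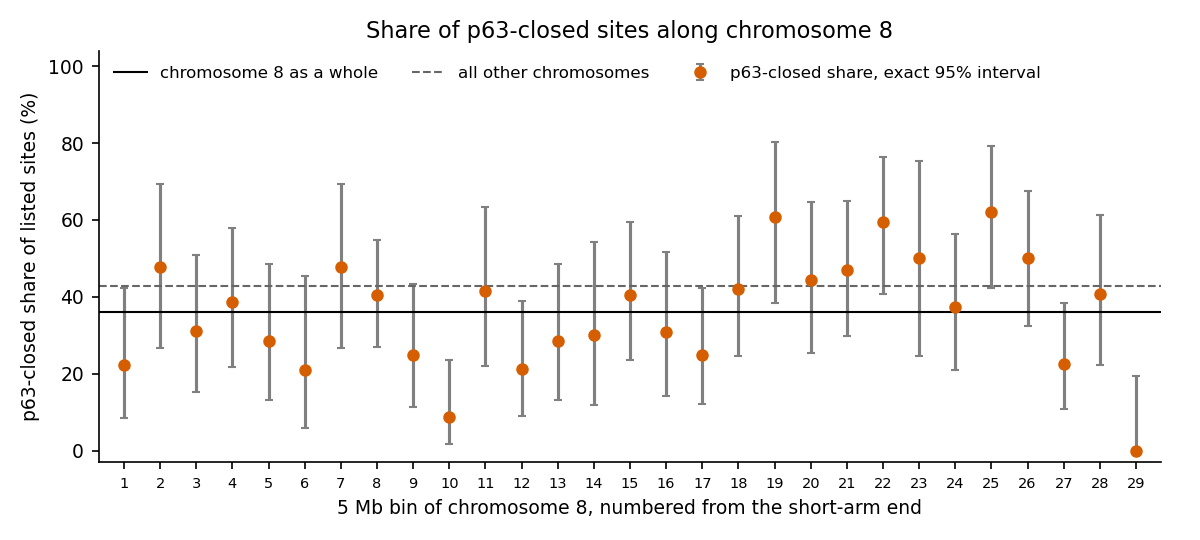
p63-closed share of listed sites, in percent, in the 29 complete 5 Mb bins of chromosome 8, with exact 95% intervals for counting error; the solid line is the whole chromosome (36.1%) and the dashed line all other chromosomes (42.9%). The intervals of bins 10 and 29 lie below the solid line, and those of bins 19, 22 and 25 lie above it.

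Dense stretches were then placed against well-known genes. A window of 1 Mb was counted as dense where it held at least 10 sites of both lists together. This held for 19 of 146 windows (13.01%) on chromosome 8, against 9.46% of 2802 windows on the other chromosomes. They held 249 sites, 29.6% of the chromosome's total, and 5 of them held exactly 10 sites while 13 further windows held 9. With window edges shifted by 500 kb the number of dense windows on chromosome 8 was 26 in place of 19. The p63-closed share was 34.9% in dense windows and 36.7% in the other windows. Genes were assigned to windows from their textbook hg19 megabase, as background. Distances between a site and a gene were not measured, and neighbouring genes share windows.

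The window from 37 to 38 Mb was the fullest of the chromosome, with 15 opened and 9 p63-closed sites. No 1 Mb window elsewhere in the genome held as many as its 24; the highest count on another chromosome was 21. ZNF703, which encodes a zinc-finger corepressor studied in breast epithelium, lies in this window. A chain of 9 sites in it, chr8:37335644-37496950, alternated between the lists: 3 opened sites, 1 p63-closed, 1 opened, 3 p63-closed and 1 opened, in that order. The third widest p63-closed site of the chromosome, 4376 bp, followed at chr8:37551836-37556211. The window of FGFR1, an FGF receptor gene in the same 5 Mb bin, held 4 opened and 2 p63-closed sites. That of UNC5D, a netrin receptor gene, held 4 of each.

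The stretch beyond the centromere was made up almost wholly of opened sites. From 48 to 49 Mb there were 14 opened sites and 1 p63-closed site, and CEBPD, which encodes a basic leucine zipper factor of the C/EBP family, lies in this window. From 49 to 50 Mb there were 17 opened sites and 1 p63-closed site. SNAI2 lies there; it encodes Slug, a repressor of E-cadherin transcription known from neural crest formation and epithelial-mesenchymal transition. An unbroken run of 16 opened sites extended over 0.829 Mb, chr8:48235771-49064424. Within the SNAI2 window lay the only chain of the chromosome made of opened sites alone, chr8:49434269-49556901. Its 7 sites were 1166 to 2956 bp wide and together covered 10.3% of 123 kb. The widest opened site of the window, 3606 bp, lay outside the chain at chr8:49668316-49671921. Bins poor in catalogue entries on other chromosomes varied in mix, but most of those with sites held more opened than p63-closed sites. The bins named here are examples. The 5 Mb bins from 95000001 on chromosome 2, 55000001 on chromosome 11 and 45000001 on chromosome 16 resembled this stretch. They held 36 opened sites and 1 p63-closed site, 33 and 2, and 24 and 2. Further ones began at 35000001 on chromosome 10, 15000001 on chromosome 18 and 25000001 on chromosome 20. Their counts were 22 and 4, 16 and 3, and 11 and 1. Those from 90000001 on chromosome 3 and 55000001 on chromosome 6 held 9 and 6, and 18 and 9. The bin from 20000001 on chromosome 19 went the other way, with 11 and 12. Whether nearness to a centromere accounts for such a mix was not tested.

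Further windows with more opened than p63-closed sites lay on both arms. From 42 to 43 Mb there were 12 opened sites and 1 p63-closed site, 7 of them in the chain chr8:42317125-42411122. From 81 to 82 Mb there were 13 opened and 3 p63-closed sites, in the window of the zinc-finger genes ZBTB10 and ZNF704. TPD52, a vesicle trafficking gene, and PAG1, a membrane adaptor gene, each share that window and reach into a neighbouring one; their pairs of windows held 17 opened and 5 p63-closed sites and 17 and 3. HEY1, a Notch target gene in the same 5 Mb bin, had 4 and 2. From 131 to 132 Mb there were 10 opened and 2 p63-closed sites, in the window of ASAP1, which encodes a GTPase-activating protein for Arf. ADCY8, an adenylyl cyclase gene, begins in that window, and its 2 windows held 14 and 2. KCNQ3, a potassium channel gene in the same bin, had 2 opened sites. From 134 to 135 Mb there were 11 opened and 2 p63-closed sites. That window holds CCN4, a matricellular protein gene known as a WNT target, NDRG1, a stress-responsive gene, and ST3GAL1, a sialyltransferase gene. The window of GRHL2, a grainyhead-like factor that maintains epithelial junction genes, had 10 opened and 5 p63-closed sites, from 102 to 103 Mb. NCALD, a calcium sensor gene, reaches from there into the next window, with 12 and 6 over both. The window of CA2, a carbonic anhydrase gene, had 7 and 4. LOXL2, a lysyl oxidase gene, and STC1, which encodes stanniocalcin, share a window with 8 opened and 2 p63-closed sites, 5 of them in the chain chr8:23278073-23315836. That of ANK1, the erythrocyte ankyrin gene, had 6 and 3. The p63-closed share was 33.3% in the windows of GRHL2, HEY1 and ANK1 and 36.4% in that of CA2. These values lie near the 36.1% of the whole chromosome.

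p63-closed sites outnumbered opened sites in 6 of the 19 dense windows, and in 35 of all 146 windows. Of these 6, only the window from 93 to 94 Mb had a share whose interval (48.2 to 97.7%) left out the chromosome's 36.1%. From 93 to 94 Mb there were 2 opened and 9 p63-closed sites; RUNX1T1, a corepressor gene, reaches into it. From 97 to 98 Mb, where GDF6, a ligand of the BMP family, and SDC2, the syndecan-2 gene, lie, there were 3 opened and 7 p63-closed sites. Of these, 6 consecutive p63-closed sites ran over 117 kb, chr8:97042851-97159744. An opened site of 4724 bp, the second widest opened site of chromosome 8, lay in the same window at chr8:97532501-97537224. From 122 to 123 Mb there were 3 opened and 7 p63-closed sites, in the window of HAS2, which makes the matrix polysaccharide hyaluronan. From 136 to 137 Mb, the window of KHDRBS3, an RNA-binding protein gene, there were 4 opened and 6 p63-closed sites. From 127 to 128 Mb, the window before that of MYC, a growth-promoting transcription factor gene, there were 6 opened and 9 p63-closed sites, and from 8 to 9 Mb 6 and 8.

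Other windows with more p63-closed than opened sites held fewer than 10 sites. The window of ANGPT1, the angiopoietin-1 gene, held 2 opened and 7 p63-closed sites. RSPO2, which encodes a secreted enhancer of WNT signalling, begins in the same window and reaches into the next. The chain chr8:108641202-108719087 in that window was the only one of p63-closed sites alone, with 5 sites of 1297 to 3699 bp over 77.9 kb. The window of ZHX2, a zinc-finger homeobox gene beside that of HAS2, held 3 and 6. Not every window in the 3 bins with more p63-closed sites was of this kind: CCN3, a matricellular protein gene, and ENPP2, which encodes autotaxin, share a window with 2 opened sites, and ZFPM2, a GATA cofactor gene, had 4 opened and 3 p63-closed sites. The window of OXR1, an oxidation resistance gene, held 1 opened and 7 p63-closed sites. The longest run of p63-closed sites on the chromosome, 7 sites at chr8:107001262-107339254, lay in it. The window of EYA1, a placode gene whose product is a transcriptional coactivator with phosphatase activity, held 2 opened and 6 p63-closed sites. The chain chr8:71947559-72079188, at the edge of the EYA1 window, mixed the lists, with 3 opened and 5 p63-closed sites.

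Chains, in which each gap between neighbouring sites was at most 50 kb, gathered at least 5 sites at 16 places. They held 103 sites, or 12.2% of the chromosome's sites, against 10.2% on the other chromosomes. Both lists were present in 14 of the 16 chains. Opened sites were the more numerous in 8 chains and p63-closed sites in 7. The p63-closed share in chains was 47.6% (49 of 103 sites), against 36.1% over the whole chromosome. No interval was computed for it, nor the same share in chains of other chromosomes. Dense windows did not show a higher share, at 34.9%. Chains spanned 37.8 to 196 kb. The longest, chr8:127445657-127641167, lay before MYC and began with an opened site, went on with 5 p63-closed sites and ended with 3 opened sites. In the chain at chr8:136506188-136642705 5 p63-closed sites were followed by 1 opened site. The chain chr8:110604368-110652461 had the opposite order, with 5 opened sites followed by 1 p63-closed site.

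**Figure D4:**
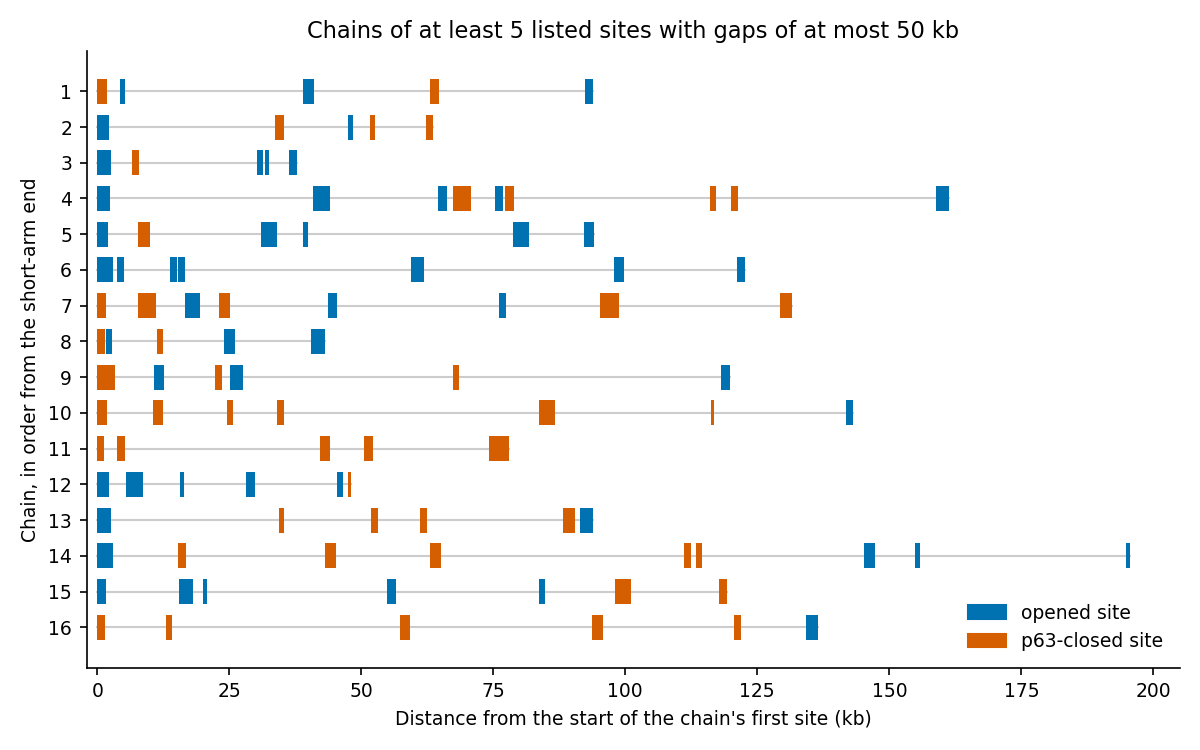
The 16 chains of at least 5 listed sites on chromosome 8, in order from the short-arm end, with each site drawn to scale by its distance in kb from the start of the chain's first site; opened sites are blue and p63-closed sites orange. Chain 6 holds 7 opened sites only, chain 11 holds 5 p63-closed sites only, and the other 14 hold both.

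Gene groups were read through the windows of 96 well-known loci. The median locus had 6.00 sites per window, against 5.00 over all 146 windows. Of the 8 loci of epithelial genes, 8 had more opened than p63-closed sites, where this held for 68 of all 96 loci and 91 of all 146 windows. Their median of 3.50 sites per window lay below that of all windows, and the counts were uneven. They were 24 for ZNF703, 15 each for CEBPD and GRHL2, and 5 or fewer for FABP5, a fatty acid binding protein of keratinocytes, PSCA, a surface antigen, SCRIB, a polarity scaffold, PLEC, which encodes plectin of hemidesmosomes, and ESRP1, an epithelial splicing regulator. The windows of PSCA and SCRIB each held 3 opened and no p63-closed sites. That of ESRP1 held 2 opened sites. The windows of PSCA and SCRIB lie side by side and PLEC shares that of SCRIB, so the 8 loci are not 8 separate places.

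The 4 ectoderm loci had a median of 7.50 sites per window. CHD7, a chromatin remodeller gene, had 6 opened sites and 1 p63-closed site, and ZFHX4, a zinc-finger homeobox gene, had 7 and 2. EYA1 had 2 and 6, and TRPS1, a GATA-type repressor gene of hair and bone, had 3 of each. Both pluripotency loci had the same counts, 3 opened and 2 p63-closed sites, for PRDM14, a stem cell repressor gene, and for MYC.

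Over all 96 loci, 68 had more opened sites, 19 more p63-closed sites and 8 equal counts. Of the 17 signalling loci 11 had more opened sites, 4 more p63-closed sites and 2 equal counts, with a median of 6.00 per window. The 4 were GDF6, ANGPT1, RSPO2 and GFRA2, a receptor gene for the neurotrophic factor neurturin, whose window held no opened and 3 p63-closed sites. BMP1, which encodes a protease that cuts procollagen and frees BMPs from chordin, had 6 opened sites and no p63-closed site. SFRP1, a secreted WNT inhibitor gene, had 6 and 3, and FZD6, a WNT receptor gene, had 4 and 3. TNFRSF11B, the osteoprotegerin gene, had 8 opened sites and 1 p63-closed site. FGF20, an FGF ligand gene, and DUSP4, a MAP kinase phosphatase gene, had 4 and 1 each. The equal counts were those of NCOA2, a nuclear receptor coactivator gene, with 4 of each, and FOXH1, a SMAD partner gene, with 1 of each. TRIB1, a pseudokinase gene, had 1 opened site. NRG1, an ERBB ligand gene, had 2 opened sites in 2 windows. One of the widest gaps between listed sites, 1849 kb from 31107894 to 32956435, takes up most of these windows.

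Among the 11 loci of adhesion and matrix genes, 7 had more opened and 4 more p63-closed sites, against 68 and 19 of all 96 loci. The pair of windows of EXT1, which builds heparan sulfate, held 14 opened and 3 p63-closed sites. PTK2, the focal adhesion kinase gene, had 9 opened sites and no p63-closed site. COL14A1, a collagen gene, had 1 and 2, and MMP16, a membrane-bound protease gene, 2 and 3. The 8 loci of long or neuronal genes had a median of 4.00 sites per window, and none lay in a dense window. CSMD1 had 9 opened and 3 p63-closed sites over 3 windows, while CSMD3 had 1 and 4 over 2 windows. PTK2 and its neighbour TRAPPC9 lie in the stretch without p63-closed sites near the end of the long arm. ADGRB1, an adhesion receptor gene, and MAFA, an insulin gene activator, lie in windows of that stretch with 3 opened sites each. There 24 opened sites followed each other over 7.15 Mb, chr8:137893768-145041810, the longest run of either list on the chromosome.

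Listed sites lay close together on chromosome 8. The median gap between neighbouring listed sites was 74.1 kb, which was shorter than on each of the other 22 chromosomes (80.8 to 166 kb). A p63-closed site lay a median of 71.3 kb from the nearest opened site, centre to centre. On the other chromosomes this median ran between 69.7 kb on chromosome 21 and 295 kb on chromosome X. An opened site lay within 50 kb of 123 of the 304 p63-closed sites (40.5%), against 28.2% on the other chromosomes. On chromosomes 21 and 18, where opened sites were denser than on chromosome 8, the value was 41.7% and 34.2%. The density of opened sites was also higher on chromosome 8 than on the other chromosomes together. Its part in these distances was not tested.

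Of 840 pairs of neighbouring sites, 490 (58.3%) held sites of a single list. The list shares of the chromosome alone, without any order, would give 53.8%. On all other chromosomes together the values were 61.7% and 51.0%, the second taken from list shares pooled over them. Chromosome X alone had 88.4% and 86.3%, and the other autosomes, again pooled, 60.8% and 50.7%. On chromosome 8 both neighbours were opened in 362 pairs and p63-closed in 128, and 350 pairs were mixed. In 30 pairs the sites had consecutive catalogue numbers, and 14 of these were both opened, 4 both p63-closed and 12 mixed. The smallest gap between a site of each list was 130 bp, between a p63-closed site at chr8:85705887-85707410 and an opened site at chr8:85707541-85708609. The next was 255 bp apart, a p63-closed site at chr8:123698560-123700234 and an opened one at chr8:123700490-123702696. None of the 304 p63-closed sites of chromosome 8 overlapped an opened site. The lists hold different entries of the numbered catalogue, so this says how the lists are made up and nothing about the cells.

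Width was not part of the choice of members. The median width of opened sites on chromosome 8 was 1626 bp, with the middle of the list between 1195 and 2053 bp (quartiles). For p63-closed sites it was 1566 bp, between 1244 and 1966 bp. The difference of 60.0 bp is small beside the spread of widths, whose SD was 730.1 bp over both lists. It equalled about the median difference of the other 22 chromosomes, 60.5 bp, which ran between -20.0 and 266.5 bp. On all other chromosomes together the medians were 1596 bp for opened and 1528 bp for p63-closed sites. Within chains the medians were 1756 bp for opened and 1650 bp for p63-closed sites, and outside chains 1609 and 1565 bp. No test was made, since sites are not replicates of a condition.

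**Figure D5:**
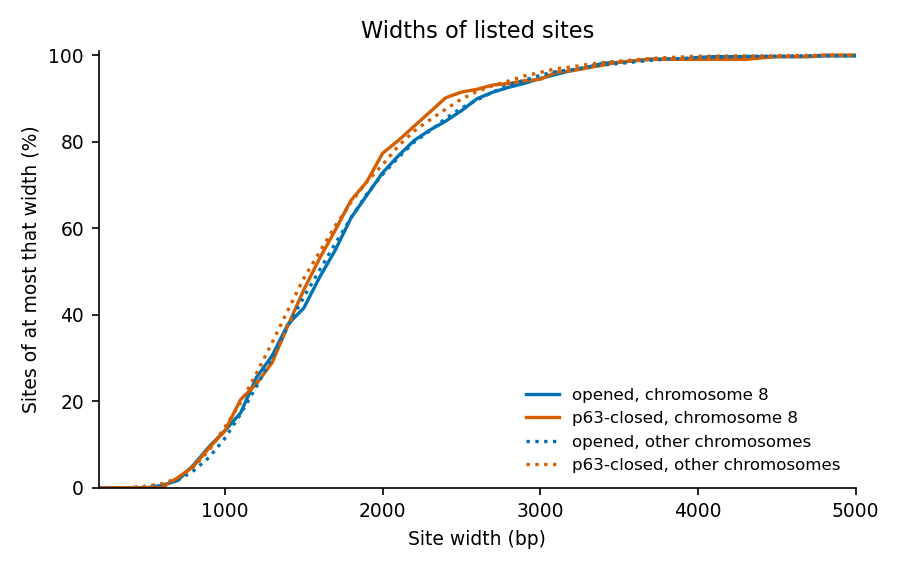
Cumulative share of sites, in percent, against site width in bp, for opened sites (blue) and p63-closed sites (orange) on chromosome 8 (solid) and on the other chromosomes (dotted). The 4 curves lie close together, with medians of 1626 and 1566 bp on chromosome 8 and 1596 and 1528 bp elsewhere.

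Sites wider than 3000 bp made up 5.40% of the opened sites (29 sites) and 5.59% of the p63-closed sites (17 sites) of chromosome 8. On the other chromosomes the shares were 4.63% and 3.99%. On chromosome 8 the widest p63-closed site, 4745 bp, lay at chr8:34114654-34119398, and the next, 4484 bp, at chr8:100697872-100702355. The widest listed site of chromosome 8, an opened one of 10232 bp, lay at chr8:43818484-43828715. It is the last site before the widest gap of the chromosome, 4039 kb without a listed site.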

How the data were processed

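ATAC-seq of 8 samples in 4 groups of 2 was analysed through 2 deposited lists of sites. FastQC, Bowtie2, SAMtools, MACS2 and DESeq2 are named in the submitters' processing notes, with hg19 and GRCh37, 2 names for 1 assembly; their versions, roles and thresholds, and whether replicates were pooled, are not stated there. Each list has 4 columns and holds no value of a sample, so depth is unknown, no replicate error can be given and no test was made.

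Sites were placed by their centre into bins of 5 Mb and windows of 1 Mb. Catalogue entries per bin were interpolated between the numbers of neighbouring sites; the numbering jumps at 6 places of the genome, where the step was estimated from the distance, and 0 of these are on chromosome 8. Chains need at least 5 sites and gaps of at most 50 kb. Shares have exact Clopper-Pearson intervals and densities exact Poisson ones. The work used matplotlib 3.10.9, pandas 2.3.3, scipy 1.17.1 and numpy 2.4.6 under Python 3.11.15, and the functions were tested on simulated sites.

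The members, lists and thresholds were chosen with earlier results of these data known. The 96 loci and their hg19 megabases were written by hand from general knowledge; all 96 are on chromosome 8 in a RefSeq gene table of GRCh38, in the same order by megabase, and no coordinate was taken from it. A locus was named where it met a dense window, a chain, one of the 5 densest or 3 emptiest bins or a bin with more p63-closed sites, or belonged to the ectoderm, epithelial, EMT, pluripotency or signalling groups; others are named as examples of their group, chosen after their values were seen. No sequence is shown, and 1 item is not reported here.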

Additional observations from a re-analysis of the deposited data

How the results depend on the processing

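No paired analysis was possible because no file gives a value for a single sample. Leaving out a replicate could not be done either, and a stricter threshold was not run for want of a score per site. Of 16 alternative settings, 12 stayed within the interval or within 1.5 times the value given and 4 moved it. The densest 5 Mb bin was number 10 (45 to 50 Mb) by catalogue entries and number 8 (35 to 40 Mb) per megabase; the bin at 45 to 50 Mb holds few entries, as it reaches into the centromere region. Bins with more p63-closed than opened sites numbered 3, and 5 with edges shifted by 2.5 Mb; the cause was not tested. Chains numbered 16, and 3 with gaps of at most 20 kb or 38 with gaps of at most 100 kb, as the definition implies. The p63-closed share was 36.6% with sites of a list within 10 kb joined and 35.9% without the fullest bin. The overlap of 0 could hardly change at these widths. Sites missing from both lists are not shown to be unchanged.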

Other observations

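The catalogue itself is thinnest at 3 places of chromosome 8. Besides the centromere region, with 127 entries per Mb, these were 6753258 to 8112689, with 151 entries per Mb, and 11800751 to 12293785, with 152. In that order they had 1 entry per 7844, 6631 and 6574 bp. The median over all gaps above 100 kb on chromosome 8 was 1 entry per 1441 bp. As background, segmental duplications with defensin and other repeated genes flank a common inversion of 8p23.1. Between the short-arm thin places lie the windows of MSRA, a methionine sulfoxide reductase gene (9 opened and 4 p63-closed sites over 2 windows), SOX7, an endoderm and endothelial factor gene (7 and 2), and GATA4, a factor of heart and endoderm (6 and 1). Whether reads that map to several places set the thin stretches was not tested.

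In the emptiest bins, the window of EBF2, a helix-loop-helix factor gene, held no listed site, in a gap of 1323 kb from 24677263 to 26000133. The window of CLU, the clusterin gene in the same bin, held 4 opened sites. At 110 to 115 Mb, gaps of 1882 and 1221 kb were parted by a single p63-closed site, which began at 113407146. The windows of CSMD3, from 113 to 115 Mb, take in the end of the first gap and the whole of the second.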
